A study of Mus musculus with 2 samples.

Results

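The nuclear genes of oxidative phosphorylation were examined at their promoters in DNase-seq of mouse cerebral cortex. They were taken by name from the GENCODE M21 annotation of the mm10 build, as every protein-coding gene whose name starts with Nduf, Uqcr or Atp5, the genes Sdha to Sdhd, and the genes named Cox followed by a number from 4 to 8 and a further letter or number. The rule used no measured value and gave 94 gene entries of the 21938 protein-coding genes. These carry 93 names, because Atp5o is annotated under 2 gene identifiers. By gene name, complex I had 38 entries and its assembly factors (Ndufaf) 8, complex II 4, complex III 8, complex IV 18 and complex V 18.

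Oxidative phosphorylation takes place in the inner mitochondrial membrane. Complexes I and II pass electrons from NADH and succinate to ubiquinone, complex III passes them on to cytochrome c, and complex IV reduces oxygen. Complexes I, III and IV pump protons, and complex V, the ATP synthase, makes ATP as the protons flow back. Some subunits of every complex except complex II are encoded in mitochondrial DNA and all others in the nucleus. Those mitochondrial genes were not analysed here, since the peak lists used held 0 peaks on the mitochondrial chromosome. Neurons depend on this pathway for most of their ATP. The transcription factors NRF1, GABPA of the ETS family, YY1, SP1 and the estrogen-related receptors (ERR) are known regulators of these genes, largely from work in human and rodent cells.

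The tissue was left cerebral cortex from females of the cross B6CASTF1/J, an F1 hybrid of C57BL/6J and CAST mice, aged 18 to 20 months. There was 1 group with 2 libraries, called library 1 and library 2 after their biological replicate numbers, and no treated or mutant group. Both libraries carry 1 donor identifier in the labels but separate biosamples. Nothing says whether separate animals were used, so the spread between the libraries may be technical. In DNase-seq the enzyme DNase I cuts DNA that is not wrapped in nucleosomes, and the cut sites are sequenced. A run of bases protected within an open region is a footprint, as left by a bound protein. Bulk cortex mixes many cell types, and fewer cells with an open promoter cannot be told apart from a weaker opening in each cell.

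A promoter peak was a deposited peak overlapping by at least 1 base the 500 bases on either side of an annotated start of the gene. The promoter signal was the signal that the authors deposited for the strongest such peak, or 0 without a peak; it is the authors' own value, and its normalization was not given in the sources used here. Genes with such a peak in both libraries are called open. The longer peak lists held 132054 peaks in library 1 and 139799 in library 2, with median signals of 0.640 and 0.641. The depth of the libraries is unknown. As a check of the tissue, promoters of 5 of 5 markers of excitatory neurons, 3 of 3 of inhibitory neurons and 3 of 3 of astrocytes had a peak in both libraries, as did 1 of 3 for oligodendrocytes, 0 of 3 for microglia and 0 of 5 for liver, muscle and epidermis. The check is weak, since 63.6% of all protein-coding genes were open. Median signals in libraries 1 and 2 were 1.57 and 1.49 for excitatory neurons, 0.626 and 0.783 for inhibitory neurons, and 0.578 and 0.999 for astrocytes. Those of all open genes were 3.13 and 3.47. The oligodendrocyte gene was Mbp, whose strongest peak in library 1 had its middle at −79389.5 bases (upstream) from the main start.

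The 8 promoter stretches below show what the results turn on. Each runs from 130 bases upstream to 20 bases downstream of the main annotated start, 5′ to 3′ on the strand of the gene, and was read from the GRCm38.p6 (mm10) reference genome. Capitals mark bases that lay in a footprint of both libraries. Ndufaf4, Atp5k and Uqcr11 are shown because an NRF1 consensus overlapped such a footprint, and Uqcr10 because a THAP11 consensus did. Cox6a1 and Cox6a2, and Cox8a and Cox8b, are shown as pairs of genes for the same subunit. The positions are chr4:24897953-24898103 on the plus strand, chr5:108434428-108434578 on the minus strand, chr10:80406810-80406960 on the minus strand and chr11:4704322-4704472 on the minus strand. The pairs lie at chr5:115348961-115349111 on the minus strand, chr7:128206367-128206517 on the minus strand, chr19:7217596-7217746 on the minus strand and chr7:140900426-140900576 on the minus strand.
Ndufaf4: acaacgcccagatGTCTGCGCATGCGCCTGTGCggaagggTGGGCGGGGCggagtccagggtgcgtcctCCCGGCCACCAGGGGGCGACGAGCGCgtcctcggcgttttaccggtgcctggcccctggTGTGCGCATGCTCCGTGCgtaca
Atp5k: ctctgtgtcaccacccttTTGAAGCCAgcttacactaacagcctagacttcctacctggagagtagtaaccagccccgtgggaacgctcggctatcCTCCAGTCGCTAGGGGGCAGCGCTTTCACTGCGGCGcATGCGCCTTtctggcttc
Uqcr11: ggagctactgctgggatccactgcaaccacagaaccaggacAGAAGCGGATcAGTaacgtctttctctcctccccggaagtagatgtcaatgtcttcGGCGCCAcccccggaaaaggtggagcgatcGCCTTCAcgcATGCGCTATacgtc
Uqcr10: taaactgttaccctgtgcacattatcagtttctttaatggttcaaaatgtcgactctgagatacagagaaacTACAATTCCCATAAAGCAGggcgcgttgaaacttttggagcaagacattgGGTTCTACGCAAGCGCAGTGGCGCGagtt
Cox6a1: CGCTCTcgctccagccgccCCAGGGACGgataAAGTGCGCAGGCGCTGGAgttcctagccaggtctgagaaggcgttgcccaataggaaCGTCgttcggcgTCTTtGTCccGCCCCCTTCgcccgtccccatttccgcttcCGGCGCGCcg
Cox6a2: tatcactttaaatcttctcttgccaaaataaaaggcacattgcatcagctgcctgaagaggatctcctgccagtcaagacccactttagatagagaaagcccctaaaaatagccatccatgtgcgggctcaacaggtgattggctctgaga
Cox8a: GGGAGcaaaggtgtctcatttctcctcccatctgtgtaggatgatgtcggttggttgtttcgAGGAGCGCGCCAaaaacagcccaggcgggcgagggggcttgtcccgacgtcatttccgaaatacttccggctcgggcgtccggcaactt
Cox8b: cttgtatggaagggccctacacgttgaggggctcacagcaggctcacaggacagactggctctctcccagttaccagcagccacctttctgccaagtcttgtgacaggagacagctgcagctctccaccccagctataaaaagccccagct
Ndufaf4 held 74 footprint bases of both libraries in these 151 bases, Cox6a1 61, Atp5k 54, Uqcr10 44, Uqcr11 36 and Cox8a 17. Cox6a2 and Cox8b held 0, and lay in no peak.

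Most members were open. Of 94 members, 86 (91.5%) were open, that is, had a promoter peak in each library; the share of all protein-coding genes was 63.6%. Library 1 had one at 86 members and library 2 at 87, against 14154 and 14579 of all 21938 protein-coding genes. There was none in either library at 7 of 94 members, against 32.6% of all protein-coding genes. A footprint inside a promoter peak was present in both libraries at 86 of 94 members (91.5%), against 61.2% of all protein-coding genes. Among open genes alone this held for 86 of 86 members and for 13420 of all 13956 (96.2%). By complex, the open members were 36 of 38 in complex I, 8 of 8 among its assembly factors, 4 of 4 in complex II, 8 of 8 in complex III, 13 of 18 in complex IV and 17 of 18 in complex V. No test was made of these counts, since the design has no second condition and genes are not replicates.

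The signal of the open members lay above that of open genes at large. Their median was 4.81 in library 1 and 5.04 in library 2. That of the 13956 open protein-coding genes was 3.13 in library 1 and 3.47 in library 2. The quartiles of the members were 3.54 and 5.92 in library 1 and 3.85 and 6.10 in library 2, against 1.52 and 5.13 in library 1 and 1.78 and 5.33 in library 2 for the open genes. The highest members ranked high without reaching the top value. Atp5g1 stood at percentile 97.56 of all protein-coding genes in library 1, and Ndufb5 at percentile 96.65 in library 2. The highest member value was 8.64 in library 1 and 7.86 in library 2, against 34.4 and 33.4 among all genes. Of the 94 members, 58 in library 1 and 62 in library 2 stood in the upper quartile of all protein-coding genes by promoter signal.

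**Figure D1:**
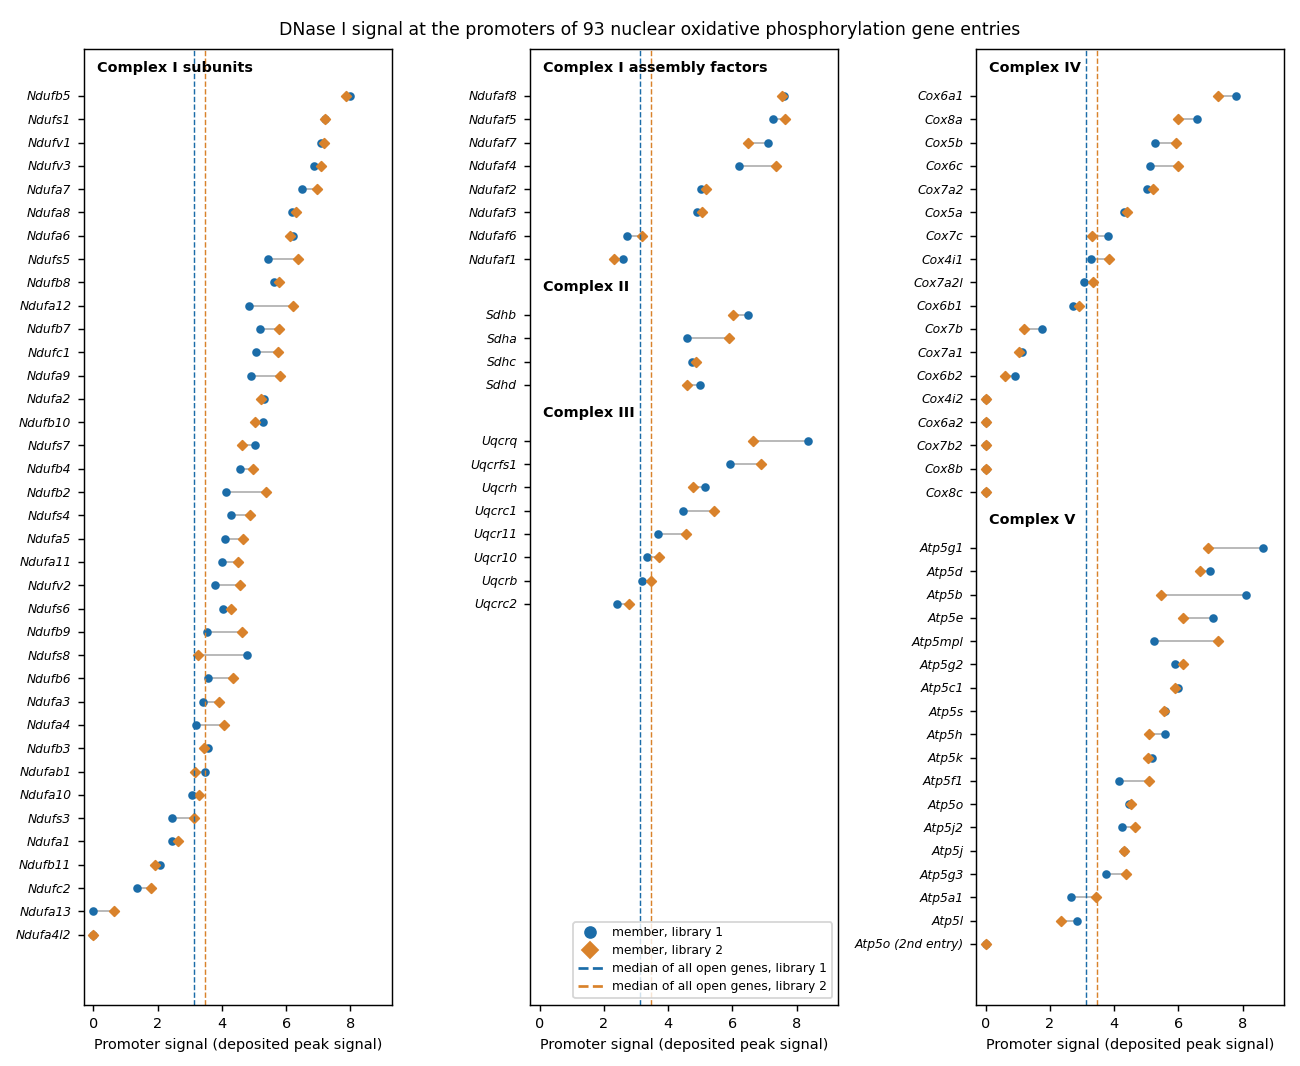
Promoter signal of 93 of the 94 member entries (deposited peak signal, linear axis from 0), with a blue circle for library 1, an orange diamond for library 2 and a grey line joining them, by complex. Dashed lines are the medians of all open protein-coding genes, 3.13 in library 1 and 3.47 in library 2; most members lie to the right of them, and the members at 0 in both libraries lie mostly in complex IV.

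In complex I, Ndufb5, an accessory subunit of the membrane arm, had the highest mean signal, with 8.0 in library 1 and 7.86 in library 2. Ndufs1, the largest iron-sulfur subunit, had 7.21 and 7.22. Ndufs1 belongs to the 7 nuclear-encoded core subunits, which carry out electron transfer. All 7 were open, with median signals of 5.03 and 4.62. Among the 31 other subunits by name, which include Ndufa4 and Ndufa4l2, 29 were open, with medians of 4.27 and 4.98. Core subunits were thus the higher in library 1 and the lower in library 2. At the low end Ndufc2, a small accessory subunit, had 1.37 and 1.79. Of the assembly factors, which help to build complex I and are not part of it, Ndufaf8 had 7.60 and 7.55, Ndufaf5 had 7.27 and 7.63, and Ndufaf1 had the lowest values with 2.60 and 2.33.

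Complex II has 4 subunits, all nuclear, and every promoter was open. Sdhb, the iron-sulfur subunit, had a signal of 6.49 in library 1 and 6.04 in library 2, or 6.26 ± 0.322 (SD, n = 2). Sdha, the flavoprotein that oxidises succinate, had 4.59 and 5.88, or 5.23 ± 0.916 (SD, n = 2). The membrane anchors were Sdhc with 4.76 and 4.88 and Sdhd with 5.0 and 4.58. Sdhb was highest in both libraries, while Sdha, Sdhc and Sdhd changed places between them, so that their order was within the spread of the pair.

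In complex III, the small subunit Uqcrq had the highest mean, with 8.36 in library 1 and 6.64 in library 2, and Uqcrfs1, the Rieske iron-sulfur protein, had 5.93 and 6.88. Uqcrh, the hinge protein, had 5.16 and 4.78. The strongest peak of Uqcrq had its middle at −223.5 in library 1 and −213.5 in library 2 from the main start, where Gdf9 starts at −196. That of Uqcrh had its middle at −359.5 in both libraries, and Lrrc41 starts at −198. The signal of these 2 genes may thus not be their own. The lowest were Uqcrc2, a core protein, with 2.41 and 2.80, Uqcrb with 3.19 and 3.48, and Uqcr10 with 3.34 and 3.71. These 3 lay below every other member of the complex in both libraries.

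In complex V, the 3 genes Atp5g1, Atp5g2 and Atp5g3 encode the same mature c subunit, the rotor ring through which protons pass. All 3 were open. Atp5g1 had 8.64 in library 1 and 6.91 in library 2, Atp5g2 had 5.89 and 6.14, and Atp5g3 had 3.76 and 4.36, the same order in both libraries. Atp5b, the catalytic beta subunit, had 8.11 and 5.45, and Atp5d, the delta subunit, had 6.98 and 6.68. That peak of Atp5d had its middle at −804.5 in library 1 and −854.5 in library 2 (upstream) from the main start. Around the main start itself the strongest peak of Atp5d had 5.10 and 4.55. Atp5a1, the alpha subunit that sits beside beta in equal number, had only 2.65 and 3.42. The values of Atp5b and Atp5a1 did not overlap between the libraries. Atp5l, subunit g, had the lowest mean of the open genes of the complex, with 2.83 in library 1 and 2.34 in library 2.

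The members without a promoter peak in both libraries were mostly tissue isoforms. Several subunits are encoded by more than 1 gene, with a widely used form and a form known from particular tissues, and 19 members belong to 8 such families. In these families 13 of 19 members were open in both libraries, against 73 of 75 members outside them. The form used in heart and skeletal muscle had a promoter signal of 0 in both libraries for Cox6a2 and Cox8b. The same held for Cox7b2 and Cox8c, known from testis, for Cox4i2, known from lung and induced at low oxygen, and for Ndufa4l2, induced at low oxygen. In all 6 the 1001 bases around the main start held 0 bases with a false discovery rate under 0.05 in the per-base table of cut rates in either library.

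The counterparts of these genes were open. Cox6a1 had 7.78 in library 1 and 7.25 in library 2, Cox8a had 6.59 and 5.99, and Cox4i1 had 3.27 and 3.83. The signal of Cox7b was lower, at 1.75 and 1.18. Ndufa4, named as a complex I subunit and counted there, but now assigned to complex IV, had 3.19 and 4.08. In 2 families a tissue form was open as well. Cox6b1 had 2.71 and 2.90, and Cox6b2, known from testis, had 0.905 and 0.592. Cox7a2 had 5.03 and 5.22, Cox7a2l, which joins complexes III and IV into supercomplexes, had 3.07 and 3.33, and the muscle form Cox7a1 had 1.12 and 1.04. In each of these families the tissue form was below the widely used form in both libraries.

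**Figure D2:**
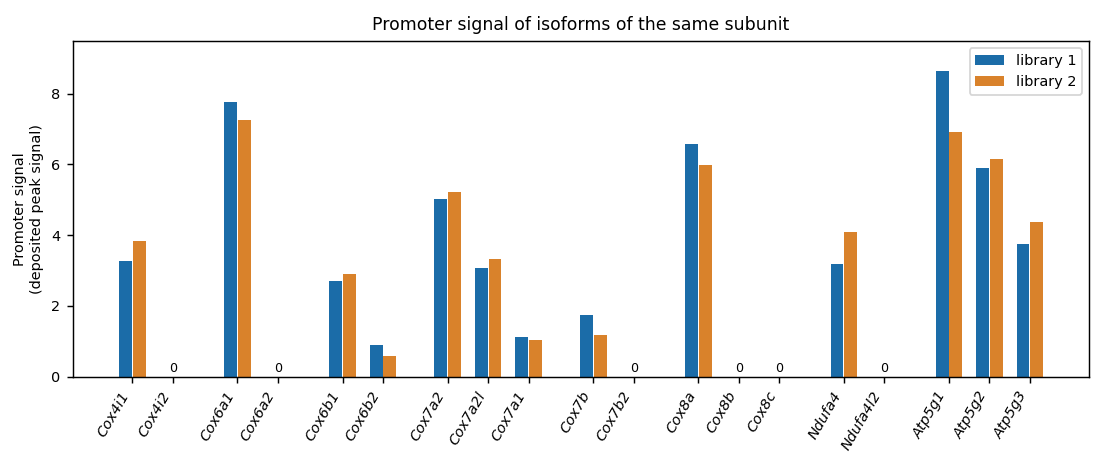
Promoter signal (deposited peak signal) of the members of the 8 isoform families, with blue bars for library 1 and orange bars for library 2; a printed 0 marks a gene with no promoter peak in either library. Cox4i2, Cox6a2, Cox7b2, Cox8b, Cox8c and Ndufa4l2 are at 0 beside open counterparts, while all 3 Atp5g genes are open.

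Some closed members had peaks nearby. The nearest peak to Ndufa4l2 ended 1847 bases upstream of its start in both libraries and had a signal of 4.31 in library 1 and 5.22 in library 2. That of Cox6a2 lay 1914 bases upstream with 1.19 and 1.10, and that of Cox8b lay 2875 and 2895 bases upstream with 1.17 and 1.39. For none of these 3 peaks did another protein-coding start lie within 500 bases. The nearest peaks to Cox4i2 were 12248 bases away in library 1 and 11479 bases in library 2. Those to Cox8c were 13054 bases away in library 1 and 8986 bases in library 2.

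Ndufa13, an accessory subunit of complex I also known as GRIM-19, was the only other gene name that missed. At its GENCODE start it had no peak in library 1 and a weak one in library 2, with a signal of 0.654. A peak of 10.1 in library 1 and 9.23 in library 2 lay 643 and 583 bases upstream, near the start of Yjefn3. Another of 4.83 and 5.48 lay 758 bases downstream, within 500 bases of a start of Tssk6. RefSeq places the start of Ndufa13 538 bases downstream of the GENCODE start, and the peak near Tssk6 lies within 500 bases of it. With RefSeq's start Ndufa13 therefore counted as open in both libraries, an alternative added after its values were seen. Atp5o was the remaining case. Its main entry, for the oligomycin sensitivity-conferring protein, had 4.45 in library 1 and 4.51 in library 2, and the second identifier of that name, whose only start lies 4559 bases from that peak, had none.

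The 2 libraries gave close values. Pearson's r between them, on log2 signals of the 86 open members, was 0.939, and Spearman's rho was 0.926. Over all 13956 open genes these were 0.975 and 0.978; both describe points that share their libraries. The median log2 ratio of library 2 over library 1 was 0.05 (SD 0.22) for the members and 0.11 (SD 0.28) for all open genes. One member, Cox6b2, differed by over 1.5-fold (1 of 86), against 6.34% of all open genes. The ratio of Cox6b2 was −0.61, followed by Atp5b and Cox7b with −0.57 each, Ndufs8, a core iron-sulfur subunit of complex I, with −0.55, and Atp5mpl, a small proteolipid of complex V, with 0.46.

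**Figure D3:**
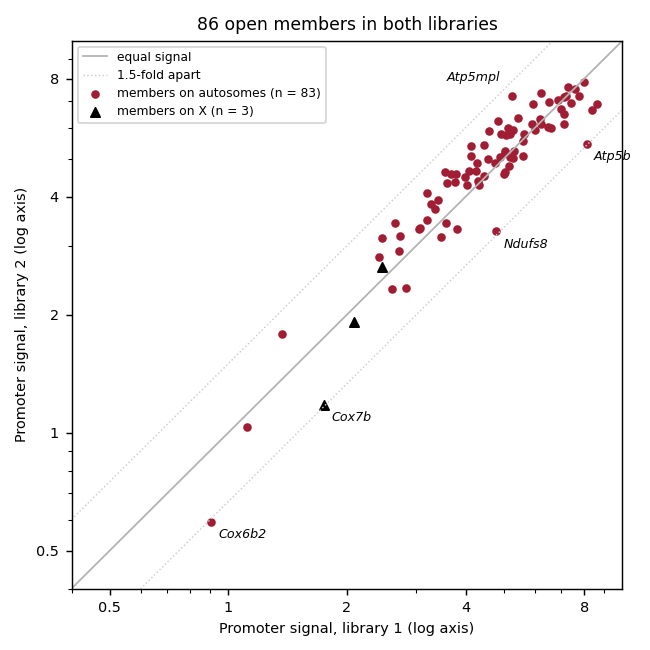
Promoter signal of the 86 open members in library 1 (x axis) and library 2 (y axis), both on log axes, with circles for the 83 members on autosomes and triangles for the 3 on X. The solid line is equal signal and the dotted lines are 1.5-fold differences; Cox6b2 is the only member outside them, with log2 ratios between −0.61 and 0.46 overall.

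Members on the X chromosome were low. Ndufa1 had 2.45 in library 1 and 2.65 in library 2, Ndufb11 had 2.08 and 1.91, and Cox7b had 1.75 and 1.18. The 83 open members on autosomes had medians of 4.90 and 5.06. The same order held among all open genes, with medians of 1.67 and 1.75 for the 461 on X against 3.23 and 3.58 for the 13495 on autosomes. The mice were female, and the part of the inactive X in these values was not tested.

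Promoters of the members were often shared. A start of another protein-coding gene on the opposite strand lay within 1000 bases of the main start of 34 of 94 members (36.2%), against 10.6% of all protein-coding genes. The other start lay upstream, as in a divergent pair, for 27 of the 34 (79.4%), against 1832 of 2325 for all protein-coding genes with a shared promoter (78.8%). It lay upstream within 200 bases for 25 of the 34 (73.5%), against 1216 of 2325 (52.3%). The median distance was 98.5 bases for members and 144 for all such genes. Shared promoters were held by 16 of 38 complex I subunits, 4 of 8 assembly factors, 3 of 4 complex II subunits, 4 of 8 complex III subunits, 1 of 18 complex IV subunits and 6 of 18 complex V entries. The 1 in complex IV was Cox4i1, whose start was 101 bases from that of Emc8, a protein of the endoplasmic reticulum.

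Several partners serve mitochondria or gene expression. Ndufs1 and Eef1b2, a translation elongation factor, started 3 bases apart, as did Ndufb11 and Rbm10, a splicing regulator. Ndufa7 started 10 bases from Rps28, a ribosomal protein gene, and Sdhd 98 bases from Timm8b, a chaperone of mitochondrial import. Mrpl36 and Mrpl47, genes of the mitochondrial ribosome, started on the other strand 29 bases downstream of Ndufs6 and 157 bases downstream of Ndufb5. Atp5j, subunit F6 of complex V, shared its strongest promoter peak with Gabpa, the ETS family subunit named above. That peak had 4.31 in library 1 and 4.29 in library 2 for both genes, and Atp5j held 10 and 14 footprints. Because 1 peak can serve 2 genes, the signal of a shared promoter is not always the member's own. The 33 open members with a shared promoter had medians of 4.76 and 4.88, against 4.85 and 5.05 for the 53 without. Among all open genes the medians were 4.68 and 4.95 with a shared promoter and 2.81 and 3.16 without.

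The peaks of the members sat close to the start. The middle of the strongest promoter peak lay within 100 bases of the main start at 67 of 86 open members in library 1 (77.9%) and 69 in library 2 (80.2%), against 53.9% and 54.0% of all open genes. This was not particular to the members. The shares were 79.5% and 76.9% at open mitochondrial ribosomal protein genes and 74.2% and 73.1% at open cytosolic ones. At open assembly factors outside the naming rule the share was 73.5% in each library. The median position of the peak middle, with upstream as negative, was −18 in library 1 and −15.5 in library 2. At all open genes it was −35.5 and −31.5. The median width was 220 bases against 240 for all open genes. Of the 1001 bases around the main start, a median of 806.5 in library 1 and 843.5 in library 2 had a false discovery rate under 0.05 at open members, against 731 and 798 at open genes. These medians were 806 and 842 at open cytosolic ribosomal protein genes and 765 and 788.5 at mitochondrial ones. At the start base itself 95.3% and 96.5% of open members passed, against 85.4% and 87.9% of open genes. At 300 bases downstream 82.6% and 88.4% of open members passed, against 66.7% and 75.8%, and at 300 bases upstream 65.1% and 70.9%, against 56.5% and 62.5%. At Atp5g2 the open start was not the main one, and its window held 0 such bases.

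Footprints at members were numerous but not more so than at other open genes. The median was 5 in both libraries, against 5 and 6 at open genes. Cox7a2l held the most, with 13 in library 1 and 14 in library 2. Atp5j and Atp5g2 followed with 10 and 14 each, Atp5d with 9 and 13 and Cox6a1 with 7 and 11. Over both libraries Cox6a1 tied with Ndufs7 (10 and 8) and with Uqcrq and Ndufaf8 (8 and 10 each). The counts cover the windows of all annotated starts of a gene, from 2 starts at Cox6a1 to 12 at Atp5j among the 5 genes first named. Of 456 footprints in promoter peaks of members in library 1, 78.7% overlapped a footprint of library 2, against 66.6% of all promoter footprints. Of 494 in library 2, 73.1% overlapped one of library 1, against 57.8%.

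Footprints were most frequent in 2 zones. In a running mean over 21 bases, the share of open members with a footprint was highest at position −30 in library 1 (37.3%) and at −46 in library 2 (39.4%), counted from the start base. At all open genes the highest shares were 23.6% at −16 and 24.9% at −15. Downstream of the start the share at members dipped to 21.2% at 28 bases in library 1 and 21.4% at 27 bases in library 2, and came back to 31.0% at 52 bases and 31.3% at 48 bases. At all open genes it was 13.0% and 14.7% at 50 bases downstream, with no such return. A footprint between 40 and 60 bases downstream was found in both libraries at 35 of 86 open members (40.7%), against 21.8% of open genes. They included Ndufs1, Sdha, Uqcrc1, Cox5a and Atp5b. The interval was chosen after the profile was seen.

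**Figure D4:**
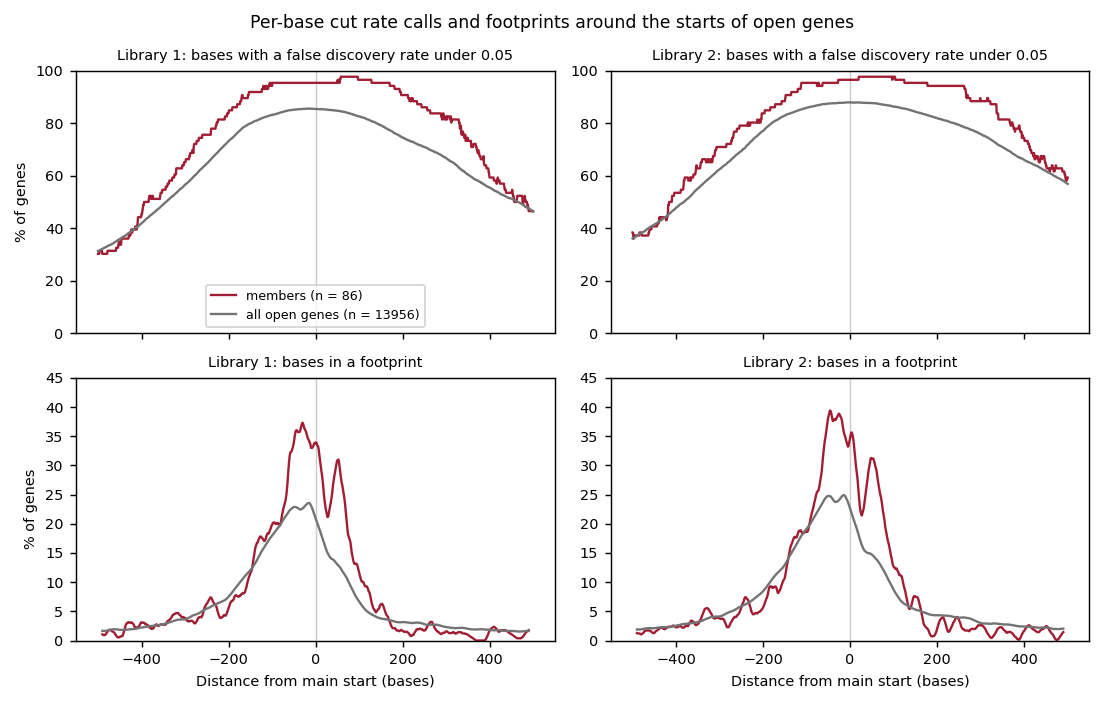
Share of genes (%) against distance from the main start in bases, for the 86 open members (red) and all 13956 open genes (grey), in library 1 (left) and library 2 (right). The upper panels show bases with a false discovery rate under 0.05 and the lower panels bases in a footprint (mean over 21 bases), where members have a main rise upstream of the start and a further rise near 50 bases downstream, at 31.0% and 31.3%.

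The sequence of the promoters was searched for 10 consensus motifs, on both strands, from 250 bases upstream to 50 bases downstream of the main start. A match was counted as in a footprint where it overlapped a footprint of each library by at least 1 base. A match is a description of the letters and not a binding site. At 8 open members the strongest promoter peak lay outside this window in both libraries: Ndufs4, Ndufa5, Atp5a1, Atp5j, Atp5j2, Atp5f1, Atp5d and Atp5g2. Its middle in library 2 lay at 177.5 from the main start at Ndufs4, at 768.5 at Atp5f1 and, upstream, at −3361.5 at Atp5g2. NRF1 was searched as GCATGCGC, for which matches on the 2 strands can overlap. It was found at 10 of 94 members (10.6%), against 3.73% of all promoters and 4.93% of open ones, and lay in a footprint at 8 of the 86 open members (9.3%), against 3.85% of open genes. These were Ndufa11 of complex I, the assembly factors Ndufaf4 and Ndufaf5, Sdhb, Uqcr11, Cox6a1, and the complex V subunits Atp5k and Atp5l. Counting the start base as 0, overlapping matches in the sequence of Ndufaf4 begin at −113 and −111, and another begins at 1. In Atp5k overlapping matches begin at −1 and 1, and in Uqcr11 a match begins at 5. The other 2 matches, at Cox8c and Ndufa6, overlapped no footprint of both libraries.

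The ETS consensus CCGGAAG was found at 17 members (18.1%), against 11.3% of all and 16.2% of open promoters. It lay in a footprint at 8 open members (9.3%), against 6.16% of open genes. Those 8 were Ndufs1, Ndufs8 and Ndufb9 of complex I, Uqcrh and Uqcrq of complex III, and Cox6a1, Cox6b1 and Cox8a of complex IV. The YY1 consensus AAGATGGCG was found at 6 members (6.38%), against 1.91% and 2.90%, and in a footprint at 4 open members (4.65%, against 1.38% of open genes), among them Ndufs7, Ndufaf8 and Atp5h. Within 500 bases of the start YY1 matched 15 members (16.0%), against 3.71% of all promoters. In the first 100 bases downstream of the start 9 members matched (9.57%), against 1.65% of all genes and 2.52% of open genes. That interval was not among the planned motif windows. ETS, NRF1 or YY1 matched 28 of 94 members (29.8%), against 15.7% of all genes. At open members the count was 27 of 86 (31.4%), against 22.3%. ERR (TCAAGGTCA) matched 2 members, Atp5g3 and Sdhd, and 9 members within 500 bases (9.57%, against 1.65% of all genes), and none of these matches overlapped a footprint of both libraries. At all open genes too, 0 of 42 with a match in the promoter window and 1 of 202 with one within 500 bases had it in such a footprint.

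SP/KLF (GGGCGGG) was found at 27 members (28.7%), against 46.6% of open promoters and 33.5% of all promoters. Within 500 bases of the start the direction against all promoters turned, with 51.1% of members and 47.7% of all promoters. It lay in a footprint at 16 open members (18.6%), against 28.6% of open genes. Open members also had a lower G and C content than open genes, with a median of 56.1% against 60.8%, and a higher ratio of observed to expected CpG, 0.822 against 0.748. Open mitochondrial and cytosolic ribosomal protein genes were alike, with 57.6% and 56.5% G and C and CpG ratios of 0.816 and 0.849. NFY (CCAAT) was found at 35 members (37.2%), against 37.7% of open and 38.5% of all promoters, and within 500 bases at 57.4% of members, against 70.0% of all promoters. CREB/ATF (TGACGTCA) was found at 4 members (4.26%), against 3.30% of open and 2.47% of all promoters. It lay in a footprint at Ndufa10, Ndufb2 and Uqcrfs1 (3.49% of open members, against 2.81% of open genes). THAP11 (ACTACAAT) was found at 3 members (3.19%), against 0.880% of all promoters, and in a footprint at Uqcr10, where it begins at −60. TATAAA was found at 11 members (11.7%), against 7.28% of open and 12.7% of all promoters. CCCTCTNG, searched as a core of the CTCF motif, was found at 5 members (5.32%), against 6.85% of all promoters. A longer CTCF consensus, CAGGGGGCG, was added after the sequences were seen. It was found at 5 members (5.32%), against 2.27% of all promoters and 3.25% of open ones, and lay in a footprint of both libraries at all 5, among them Ndufc1, Ndufaf4, Uqcrc1 and Atp5e. At all open genes 309 of 454 such promoters had it in a footprint.

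**Figure D5:**
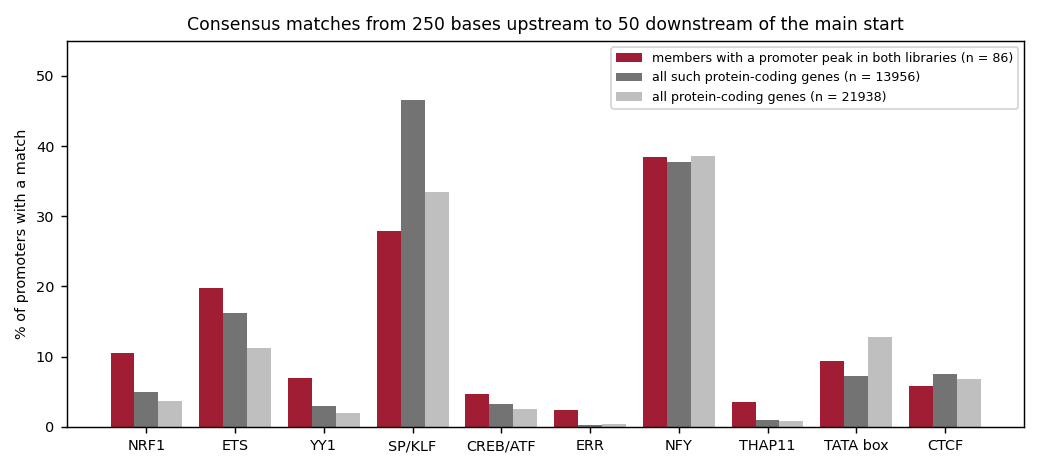
Share of promoters (%) with a match to each consensus, for the 86 open members (red), all 13956 open protein-coding genes (dark grey) and all 21938 protein-coding genes (light grey). NRF1 and YY1 are more frequent at members than at both other sets, and SP/KLF is less frequent in this window (27.9%, 46.6% and 33.5%). ETS (19.8% of members, 16.2% of open genes) and CREB/ATF (4.65% and 3.30%) are near the share of open genes. The bars of CREB/ATF, THAP11 and ERR rest on 4, 3 and 2 members.

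Genes of the same and neighbouring pathways, taken from lists, were open as widely. Of 35 assembly factors outside the naming rule 34 had a promoter peak in both libraries, with medians of 4.95 in library 1 and 4.92 in library 2. The exception was Sdhaf1, an assembly factor of complex II, which had none. Cycs, the cytochrome c of somatic tissues, had 9.03 and 8.26, above every member in both libraries, and Cyct, its testis counterpart, had none. Cyc1, the cytochrome of complex III, had 1.64 and 2.62. All 18 regulators were open, with Esrra, the gene of ERR alpha, at 10.1 and 9.61 and Ppargc1a, the gene of the coactivator PGC-1 alpha, at 0.456 and 0.777. Nrf1 itself had 3.76 and 5.22, and Ppargc1a was the lowest of the list. All 13 citric acid cycle genes and all 17 glycolysis entries (Aldoa counts as 2) were open, with medians of 4.80 and 5.06 and of 4.39 and 4.87.

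Promoters were shared by 36.2% of members, by 12 of 35 assembly factors outside the rule (34.3%), by 4 of 13 citric acid cycle genes (30.8%), by 31 of 78 mitochondrial ribosomal protein genes (39.7%), by 15 of 102 cytosolic ribosomal protein genes (14.7%) and by 0 of 17 glycolysis entries. The open members' medians of 4.81 and 5.04 stood above the 3.80 and 4.31 of the mitochondrial ribosomal genes and near the 5.0 and 5.19 of the 93 open cytosolic ones. ETS, NRF1 or YY1 matched 29.8% of members, against 48.7% of mitochondrial ribosomal genes, 51.4% of the 35 other assembly factors, 37.3% of cytosolic ribosomal genes and 11.8% of glycolysis entries. No test was made of these differences between lists.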

How the data were processed

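DNase-seq was measured in 2 libraries of 1 group. Each had deposited peak lists, footprints and a per-base table, on mm10 per the file headers and readmes. The aligner, the peak caller and the depth were not given in the sources used here, nor is how reads with CAST alleles were placed, which could lower the signal where the strains differ. The peak signal was deposited by the authors for each library separately. The deposited per-base q-value (false discovery rate) is listed only under 0.05, and the footprint lists deposited by the authors hold a q-value of 0.01 throughout. From these, promoter peaks (longer list, 500 bases on either side of any GENCODE M21 start), footprints, distances and consensus matches were computed with Python 3.11.15, numpy 2.4.6, pandas 2.3.3 and scipy 1.17.1. The main start was that of the principal transcript. Peak and motif searches were tested on simulated data. No p-value was computed, since there is 1 group and no contrast.

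The members, gene lists and motifs were chosen with earlier results of these data known. Named by rule were members without a peak in a library, isoform families, Sdha to Sdhd, the 3 highest and 3 lowest per complex, the 5 largest ratios between libraries, the 5 with most footprints, and those with NRF1 in a footprint. Others were chosen after their values were seen. The values of 1 member are not reported here. Alternatives were the shorter list, stronger peaks, windows of 250 and 2000 bases, the main start only, wider motif windows, motifs in footprints and a false discovery rate of 0.001.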

Additional observations from a re-analysis of the deposited data

How the results depend on the processing

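Of 110 alternatives computed, 92 kept a value within 1.5 times of a count or within 1 SD of the pair of libraries for a median. With 86 of 94 members open, a count of open members could not rise by 1.5 times. For such counts the rule could register only a large fall, so the 92 are no measure of how stable they are. Percentages beside counts of open members are the open share of all protein-coding genes under the same setting. With the shorter peak list (59.5%) or with peaks above the median signal (58.1%) 85 members were open in both libraries, with Cox6b2 lost. A window of 250 bases gave 86 (62.1%), and one of 2000 bases gave 89 (67.8%), with Cox6a2, Ndufa13 and Ndufa4l2 gained. The main start alone gave 84 (58.9%), with Atp5f1 and Atp5g2 lost. Library 1 alone gave 86 and library 2 alone 87, against 14154 and 14579 of all 21938 protein-coding genes. RefSeq starts, added after Ndufa13 was seen, covered 74 names, of which 72 were open, against 63.0% of all protein-coding genes matched this way. Cox7b2 and Cox8b were the names not open. The main starts of the closed genes Cox4i2, Cox6a2, Cox8c and Ndufa4l2 lay in no RefSeq promoter. The names covered thus left out closed members, and their open share is not that of all members. Median footprints in library 1 came to 4 with the 250-base window and with the main start only. Under a false discovery rate of 0.001 the median number of bases was 643 in library 1 and 707 in library 2. With 500 bases on either side, matches were at 30 members for ETS (31.9%, against 19.4% of all promoters), 15 for YY1 (16.0% and 3.71%), 48 for SP/KLF (51.1% and 47.7%), 9 for ERR (9.57% and 1.65%), 54 for NFY (57.4% and 70.0%), 22 for the TATA box (23.4% and 31.5%) and 16 for CTCF (17% and 18.2%). Matches in footprints of both libraries are given next, with the share of open members and then of open genes. There were 8 for ETS (9.3% and 6.16%), 16 for SP/KLF (18.6% and 28.6%) and 0 for ERR (0% and 0%). For NFY there were 11 (12.8% and 8.80%) and for THAP11 1 (1.16% and 0.337%). The TATA box had 1 (1.16% and 0.774%) and CTCF 2 (2.33% and 2.05%). A wider or narrower window by construction holds more or fewer matches. No paired analysis was possible because there is 1 group and no contrast. The unknown depth limits how low a signal could be called as a peak, so a member without a peak was not detectably open here rather than closed in every cell.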

Other observations

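Of 12 processed pseudogenes named after members, 11 had no promoter peak in either library and 1, Ndufs6b, had a weak one with 0.340 in library 1 and 0.481 in library 2. Of all 9940 processed pseudogenes, 95.2% had no promoter peak in either library, so the share at those named after members was near the background.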
